A study of Mus musculus with 9 samples.

Results

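The genes that build the acetylcholine receptor and the neuromuscular synapse were followed in mouse primary myoblasts given the BMP antagonist GREM1 or the ligand BMP4. They were chosen by name as 10 genes of the 24011 on the array: the receptor subunits Chrna1, Chrnb1, Chrnd, Chrng and Chrne, the agrin receptor chain Lrp4, the receptor kinase Musk, its adaptor Dok7, the receptor scaffold Rapsn and the esterase Ache. The choice was made with earlier results of these data known. Each gene had 1 probe set. Per the labels and the design text, satellite cell-derived myoblasts were grown with 20% fetal bovine serum and basic FGF and then moved to 2% horse serum, and RNA was taken after 24 h. The groups were cells given 500 ng/ml recombinant GREM1 (3 arrays), cells given 100 ng/ml recombinant BMP4 (3 arrays) and mock-treated controls (3 arrays). The labels name no strain, age or genotype, and they mention no nerve in the cultures.

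At the neuromuscular synapse the motor nerve releases agrin, which binds LRP4 on the muscle fibre and thereby activates the kinase MuSK. MuSK, together with its cytoplasmic adaptor DOK7, gathers acetylcholine receptors under the nerve ending, where rapsyn anchors them, and acetylcholinesterase ends each signal by cleaving the transmitter. Cultured muscle cells switch on many of these genes without nerve as myoblasts differentiate. The receptor is built from alpha, beta and delta subunits with a gamma subunit in embryonic and denervated muscle, which the epsilon subunit replaces in innervated adult fibres. Transcription of the subunit genes is known to depend on myogenic factors such as myogenin and MyoD, which bind E-box sequences. In adult fibres the epsilon subunit gene also responds to Ets factors, which bind a sequence known as the N-box.

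Upstream sequences are shown for 3 receptor subunit genes because Chrng and Chrne mark the embryonic and adult receptor, which the measurements set side by side, and Chrna1 belongs to both. They are the 250 bases before the start site, 5′ to 3′, taken from RefSeq (GRCm38.p6). Chrng, the gamma subunit, lies at chr1:87205561-87205810 on the plus strand, Chrna1, the alpha subunit, at chr2:73580339-73580588 on the minus strand, and Chrne, the epsilon subunit, at chr11:70619195-70619444 on the minus strand. Capitals mark E-boxes (CANNTG, which as a pattern is its own reverse complement, and of which CAGCTG is one form) and the N-box core CCGGAA, searched on both strands.
Chrng: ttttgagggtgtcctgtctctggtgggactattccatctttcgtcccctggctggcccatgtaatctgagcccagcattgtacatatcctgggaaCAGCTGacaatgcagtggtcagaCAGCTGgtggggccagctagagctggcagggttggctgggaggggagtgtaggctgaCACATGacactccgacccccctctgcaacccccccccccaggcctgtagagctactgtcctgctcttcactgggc
Chrna1: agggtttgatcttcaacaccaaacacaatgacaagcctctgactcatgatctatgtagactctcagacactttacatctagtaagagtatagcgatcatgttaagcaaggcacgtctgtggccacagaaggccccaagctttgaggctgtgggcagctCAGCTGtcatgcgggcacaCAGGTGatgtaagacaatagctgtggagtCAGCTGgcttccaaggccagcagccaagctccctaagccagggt
Chrne: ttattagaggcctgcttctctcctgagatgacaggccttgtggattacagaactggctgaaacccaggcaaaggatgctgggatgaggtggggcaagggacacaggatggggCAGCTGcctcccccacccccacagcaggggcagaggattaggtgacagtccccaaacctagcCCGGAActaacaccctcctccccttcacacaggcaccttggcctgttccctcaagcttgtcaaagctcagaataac
Chrng held 3 E-boxes, of which those 155 and 132 bases before the start have the core CAGCTG. Chrna1 also held 3 E-boxes, with CAGCTG at 92 and 44 bases before the start. Chrne held 1 E-box, a CAGCTG 138 bases before the start, and 1 CCGGAA 76 bases before it. Among 32851 mouse promoters of the same length, 1.26% held at least 2 CAGCTG, 31.8% held at least 2 E-boxes of any kind and 12.0% held CCGGAA on either strand. Promoters were found for 7 of the 10 genes. Chrnb1 and Musk held 3 E-boxes each and Ache 1, while the 2 promoters of Dok7 held 1 and 0, and CCGGAA was found in none of these. Musk held 1 CAGCTG, and Chrnb1, Dok7 and Ache held 0. Chrnd, Rapsn and Lrp4 are named without a sequence. A match of letters is a description of the window and not a binding site.

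Values are log2 expression from robust multi-array averaging (RMA), so a difference of 1 is a doubling. Differences between groups are given with their standard error (SE) from limma, and p-values were adjusted by the Benjamini-Hochberg method over 17142 genes, with 0.05 as the threshold. All 10 genes lay above the filter on low values (the 30th percentile, 3.89 to 4.02) on all 9 arrays. The muscle identity of the cultures showed in Myod1 at 9.02 to 9.94, in the intermediate filament gene Des at 10.7 to 11.4 and in the fusion gene Mymk at 11.6 to 12.3. Markers of other cell types, several of which also passed the filter, are given with the results. The arrays limit the precision by their number, and as the labels do not say whether replicates are separate cultures, p-values here reflect only how far these samples scatter. Control replicate 1 stood apart from the other arrays on the second principal component (31.6, the next highest being 6.12).

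**Figure D1:**
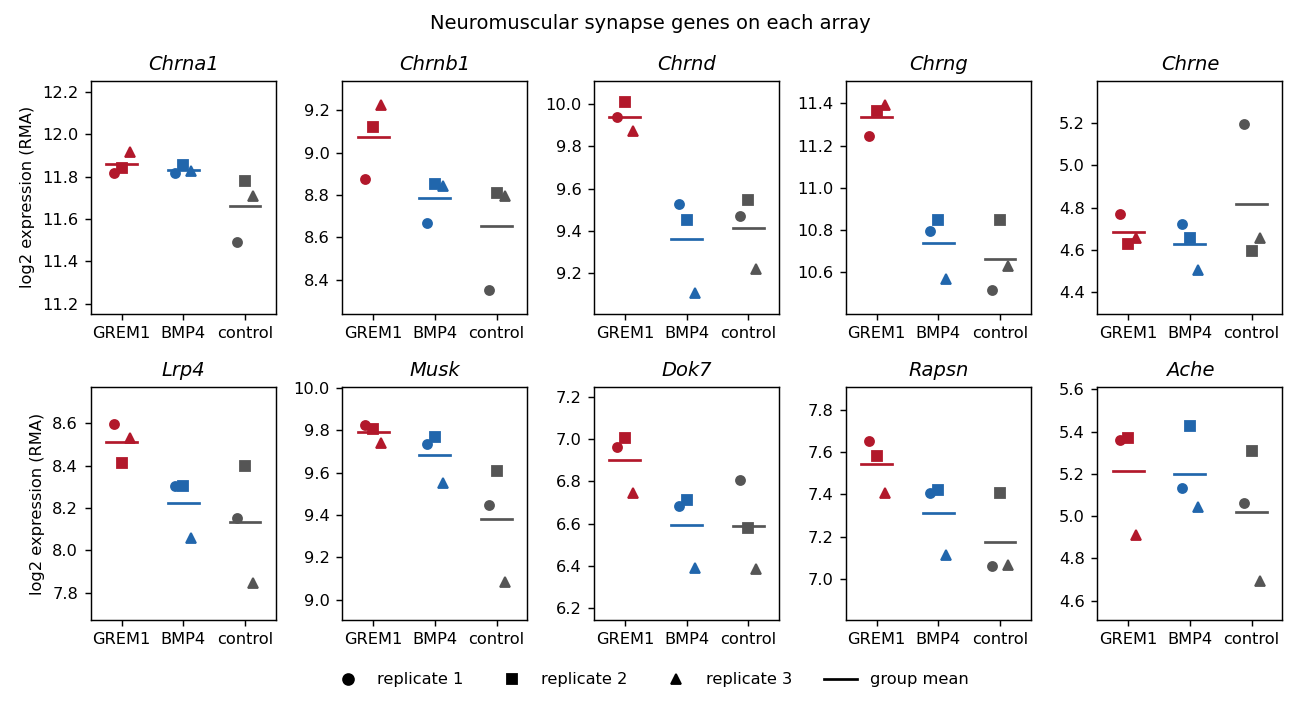
Log2 expression (RMA) of the 10 synapse genes on each of the 9 arrays, with GREM1, BMP4 and control groups from left to right, 1 symbol per replicate number and a bar at the group mean. Every panel spans the same log2 range. The GREM1 arrays of Chrng and Chrnd lie above all BMP4 and control arrays, while those of Chrne do not.

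GREM1 and control arrays were compared to see which synapse genes differ when the antagonist is added. The gamma subunit gene Chrng rose, and the other 9 did not pass the test. Chrng measured 11.25, 11.37 and 11.39 on the GREM1 arrays, against 10.52, 10.85 and 10.63 on the control arrays. The lowest GREM1 array thus lay above the highest control array. The difference was 0.67 ± 0.11 (SE), or 1.59-fold (95% interval of the log2 difference 0.42 to 0.92, limma adjusted p = 0.0126). Of all genes tested 2.07% rose in this comparison, and 1 of the 10 synapse genes did. The call was lost without GREM1 replicate 2, where the difference was 0.65 (limma adjusted p = 0.0565).

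Chrnd, the delta subunit gene, measured 9.94, 10.01 and 9.87 with GREM1, against 9.47, 9.55 and 9.22 in controls. The groups did not overlap, and the difference of 0.53 ± 0.13 was just outside the threshold (limma adjusted p = 0.0510). Chrnb1, the beta subunit gene, measured 8.87, 9.12 and 9.23 with GREM1, against 8.35, 8.81 and 8.79 in controls. All 3 GREM1 arrays were above the controls, by as little as 0.064 at the nearest pair, and the difference was 0.42 ± 0.14 (limma adjusted p = 0.129). Chrna1, the alpha subunit gene that carries most of the acetylcholine binding site, measured 11.82, 11.84 and 11.92 with GREM1, against 11.49, 11.78 and 11.71 in controls. Its difference was 0.20 ± 0.090 (limma adjusted p = 0.260), and control replicate 1 was the lowest of the 9 arrays.

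Chrne, the adult epsilon subunit gene, was the only one of the 10 with a value below 0 in this comparison. It measured 4.77, 4.63 and 4.66 with GREM1, against 5.19, 4.60 and 4.66 in controls. The groups overlapped, and control replicate 1 was the single high array. The difference was -0.13 ± 0.15 (limma adjusted p = 0.686), and it was 0.059 without control replicate 1.

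Among the genes of the MuSK complex, values with GREM1 were above the controls and did not pass the test. Musk measured 9.83, 9.81 and 9.74 on the GREM1 arrays, against 9.45, 9.61 and 9.08 on the control arrays, without overlap, a difference of 0.41 ± 0.13 (limma adjusted p = 0.110). Lrp4 measured 8.60, 8.41 and 8.53 with GREM1, against 8.16, 8.40 and 7.85 in controls, a difference of 0.38 ± 0.14 (limma adjusted p = 0.162). The lowest GREM1 and highest control array of Lrp4 were 0.013 apart, so the groups hardly separated. Dok7 measured 6.96, 7.004 and 6.74 with GREM1, against 6.81, 6.58 and 6.39 in controls, and here control replicate 1 lay above GREM1 replicate 3. The difference was 0.31 ± 0.13 (limma adjusted p = 0.229).

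Rapsn, which encodes the receptor scaffold rapsyn, measured 7.65, 7.58 and 7.40 with GREM1, against 7.06, 7.40 and 7.07 in controls. The lowest GREM1 array had the same value as the highest control array, and the difference was 0.37 ± 0.13 (limma adjusted p = 0.142). Ache, the esterase of the synaptic cleft, measured 5.36, 5.37 and 4.91 with GREM1, against 5.06, 5.31 and 4.69 in controls. The groups overlapped, with a difference of 0.19 ± 0.18 (limma adjusted p = 0.618). Leaving out 1 array moved several of these differences by over 1.5 times. Ache ranged from 0.028 without control replicate 3 to 0.34 without GREM1 replicate 3. Chrna1 was 0.11 and Chrnb1 0.27 without control replicate 1, and Lrp4 was 0.24 and Musk 0.26 without control replicate 3. In all, 9 of the 10 genes had values above 0, against 48.6% of all genes tested, with a median of 0.37, where the median of all tested genes was -0.0057. The GREM1 arrays lay wholly above the controls for 6 of the 10 genes, against 11.3% of all genes tested. At an unadjusted p under 0.05 in limma 7 of the 10 differed, all higher, against 20.0% of all genes tested in either direction. As the 10 genes were chosen with earlier results of these data known, such shares, here and below, describe the set and do not test it.

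**Figure D2:**
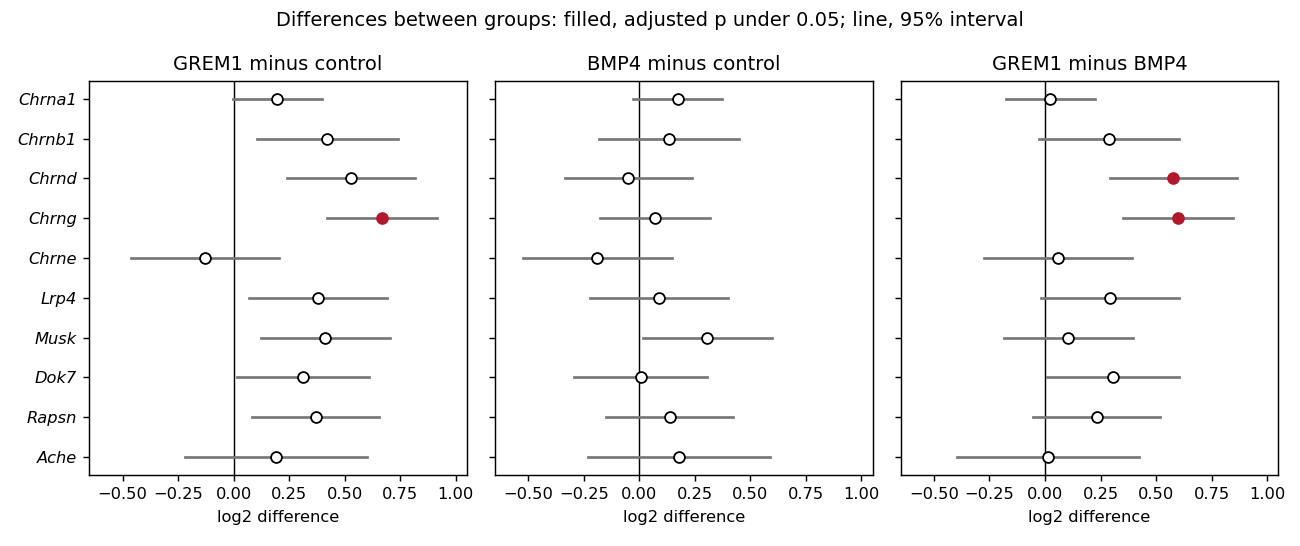
Log2 differences of the 10 genes for GREM1 minus control, BMP4 minus control and GREM1 minus BMP4, with 95% intervals from limma. Filled points passed at an adjusted p under 0.05, which were Chrng with GREM1 against control, and Chrng and Chrnd with GREM1 against BMP4.

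Treated and control arrays of the same replicate number tended to vary together across genes, least so for number 2 (correlations of 0.12 and 0.17). The difference within each number was therefore also examined. Chrng was higher with GREM1 by 0.73, 0.52 and 0.76 within replicate numbers 1, 2 and 3. Chrnd was higher by 0.47, 0.47 and 0.65, and Chrnb1 by 0.52, 0.31 and 0.43. Except for Chrne, at -0.42, 0.034 and 0, all of the genes were above 0 within every number. Lrp4 ranged most widely, from 0.013 within number 2 to 0.68 within number 3. With the replicate number as a block, 6 of the 10 genes rose and 0 fell, where 5.58% of all genes tested rose. They were Chrng (limma adjusted p = 0.00439), Chrnd (0.00730), Chrnb1 (0.0161), Musk (0.0293), Rapsn (0.0428) and Dok7 (0.0457). Lrp4, Chrna1, Ache and Chrne did not pass with the block (limma adjusted p = 0.0796, 0.179, 0.238 and 0.522).

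**Figure D3:**
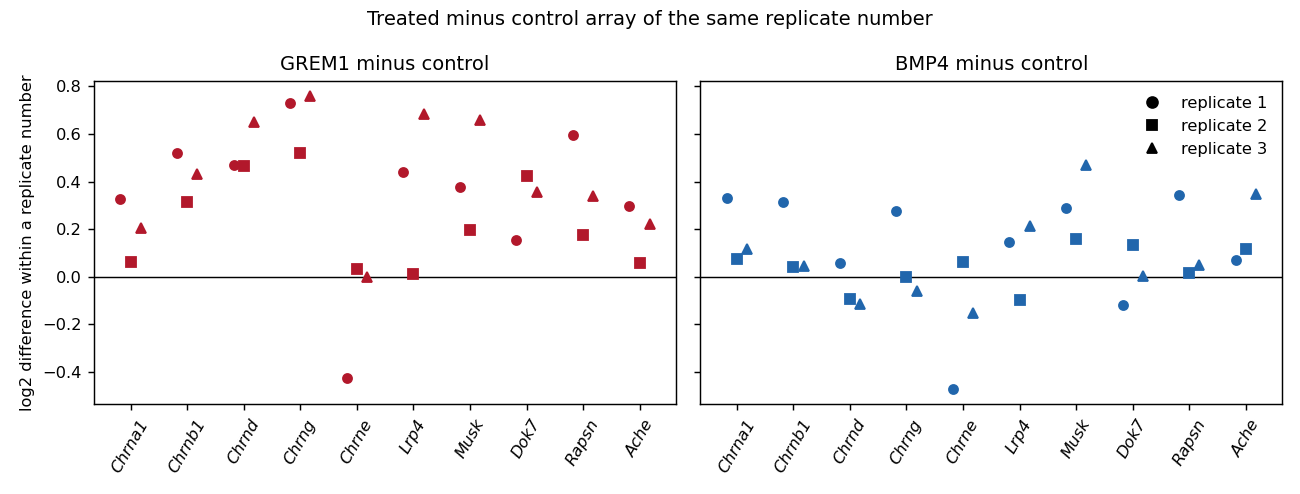
Log2 difference of each gene between the treated and the control array of the same replicate number, for GREM1 (left) and BMP4 (right), 1 symbol per number. With GREM1 the 3 values of Chrng lie between 0.52 and 0.76, and with BMP4 between -0.061 and 0.28.

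Of 7 markers of muscle differentiation 2 rose with GREM1 against control, where 2.07% of all genes tested rose, and 0 passed in limma with BMP4 against control, with 0 at an unadjusted p under 0.05. The mean over the 7 genes was 10.7 to 10.8 on the GREM1 arrays, 9.79 to 10.4 on the BMP4 arrays and 9.89 to 10.3 on the control arrays. The genes that rose were the creatine kinase gene Ckm (1.70 ± 0.22) and the fusion micropeptide gene Mymx (1.02 ± 0.23) (limma adjusted p = 0.00433 and 0.0419). The other 5 did not pass, being Myog (0.90 ± 0.27), the embryonic myosin gene Myh3 (0.40 ± 0.16), Mymk (0.37 ± 0.16), the cardiac actin gene Actc1 (0.14 ± 0.098) and the slow troponin gene Tnnt1 (0.013 ± 0.14). With the replicate block 4 of the 7 rose, where 5.58% of all genes tested did. Of 5 myoblast markers 1 rose, the cadherin gene Cdh15 (0.91 ± 0.11, limma adjusted p = 0.00348). The others did not pass, being Des (0.32 ± 0.15), Myod1 (0.27 ± 0.17), Pax7 (-0.20 ± 0.15) and Myf5 (-0.85 ± 0.29). With the replicate block 1 of the 5 rose, Cdh15, and 1 fell, Myf5, where 11.6% of all genes tested were called. Among 3 tested osteoblast markers Sp7, an osteoblast transcription factor, averaged 4.56 with GREM1 and 9.11 with BMP4, against 7.13 in controls. It fell by 2.57 with GREM1 and rose by 1.98 with BMP4 (limma adjusted p = 4.63e-06 and 2.67e-05). Bglap and Alpl did not pass in any comparison, and neither followed Sp7. At an unadjusted p under 0.05 in limma, Bglap was lower with BMP4 than in controls (-0.40 ± 0.16). It was also higher with GREM1 than with BMP4 (0.39 ± 0.16), and Alpl was -0.11 ± 0.11 with BMP4 against control. In bulk RNA, more differentiated cells and more RNA per cell cannot be told apart, and the part of these markers in the values of the synapse genes was not tested. Over the motor neuron markers, 4 of 6 passed the filter and the mean level of all 6 was 3.86 to 4.07 with GREM1, 3.94 to 4.11 with BMP4 and 3.89 to 4.06 in controls. Over the Schwann cell markers, 4 of 6 were on the array and 3 were tested, and the mean of the 4 was 4.55 to 4.65 with GREM1, 4.51 to 4.61 with BMP4 and 4.54 to 4.66 in controls. In limma 0 markers of these nerve cell types passed in any comparison, and 1 was past an unadjusted p of 0.05, Isl1 between GREM1 and BMP4 (-0.28 ± 0.095). The motor neuron genes Chat, Isl1, Mnx1 and Prph passed the filter and the transporters Slc18a3 and Slc5a7 did not. Of 5 endothelium markers 3 passed the filter, and the mean of the 5 was 3.96 to 4.18 with GREM1, 3.82 to 3.99 with BMP4 and 3.95 to 4.04 in controls. Of 5 leukocyte markers 3 passed, among them Cd68, a lysosomal protein gene of macrophages, at 6.26 to 6.67 over the 9 arrays. The mean of the 5 was 4.25 to 4.34 with GREM1, 4.23 to 4.39 with BMP4 and 4.32 to 4.36 in controls. The 4 fibroblast markers on the array did not pass the filter. In limma 0 endothelium or leukocyte markers passed in any comparison, and at an unadjusted p under 0.05 there was 1, Itgam, with BMP4 against control (-0.21 ± 0.093) and with GREM1 against BMP4 (0.25 ± 0.093).

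BMP4 and control arrays were compared to see whether the ligand moves these genes, with the same 3 control arrays as above. In limma 0 of the 10 genes passed, where 0.117% of all genes tested were called, and 0 passed with the replicate block, where 0.379% were. At an unadjusted p under 0.05 there was 1, Musk, against 8.02% of all genes tested. Musk measured 9.74, 9.77 and 9.55 with BMP4, against 9.45, 9.61 and 9.08 in controls, a difference of 0.31 ± 0.13 (limma adjusted p = 0.605, or 0.232 with the replicate block). BMP4 replicate 3 lay below control replicate 2, although Musk was higher within each replicate number. Chrna1 measured 11.82, 11.86 and 11.83 with BMP4, against 11.49, 11.78 and 11.71 in controls. It was the only one of the 10 whose BMP4 arrays all lay above the controls, as did 5.31% of all genes tested, and its difference was 0.17 ± 0.090 (limma adjusted p = 0.661).

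Chrng measured 10.79, 10.85 and 10.57 with BMP4, against 10.52, 10.85 and 10.63 in controls, and the groups overlapped. Its difference from control was 0.072 ± 0.11, with a 95% interval of -0.18 to 0.32. Chrnd measured 9.53, 9.45 and 9.11 with BMP4, against 9.47, 9.55 and 9.22 in controls, a difference of -0.049 ± 0.13. Chrnb1 (0.13 ± 0.14), Lrp4 (0.088 ± 0.14), Rapsn (0.14 ± 0.13), Ache (0.18 ± 0.18), Dok7 (0.0055 ± 0.13) and Chrne (-0.19 ± 0.15) had overlapping groups as well. The median of the 10 genes was 0.11, and 8 were above 0, against 48.2% of all genes tested. A p that misses the threshold does not show that BMP4 left these genes unchanged. The 95% intervals allow differences of up to 0.60 for Musk, 0.59 for Ache and 0.45 for Chrnb1, and down to -0.52 for Chrne.

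The comparison of GREM1 with BMP4 tests directly whether the antagonist and the ligand differ. Chrng was higher with GREM1 by 0.60 ± 0.11, or 1.51-fold (95% interval 0.35 to 0.84, limma adjusted p = 0.0124), and Chrnd by 0.58 ± 0.13, or 1.49-fold (0.29 to 0.86, limma adjusted p = 0.0277). Both rose relative to BMP4, where 2.83% of all genes tested did, and the other 8 did not pass. All 10 values were above 0, against 50.0% of all genes tested, and 3 passed an unadjusted p of 0.05 (the third being Dok7), against 19.4% of all genes. For Chrnd the lowest GREM1 array, 9.87, lay above the highest BMP4 array, 9.53. Chrnb1 (0.29 ± 0.14), Lrp4 (0.29 ± 0.14) and Dok7 (0.31 ± 0.13) also had GREM1 arrays above every BMP4 array (limma adjusted p = 0.310, 0.292 and 0.244). That made 5 of the 10 genes, against 12.2% of all genes tested. Chrna1 (0.024 ± 0.090), Ache (0.013 ± 0.18), Chrne (0.059 ± 0.15), Musk (0.10 ± 0.13) and Rapsn (0.23 ± 0.13) had overlapping groups. Chrng lost the call without GREM1 replicate 2 (limma adjusted p = 0.0529). Chrnd lost it without any one GREM1 array, BMP4 replicate 2 or BMP4 replicate 3 (highest limma adjusted p = 0.104).

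In order of group means, Chrng, Chrnb1, Lrp4, Musk, Dok7, Rapsn, Chrna1 and Ache ran GREM1, BMP4, control from high to low. Among neighbours in that order, GREM1 and BMP4 were apart in the test for Chrng alone, and BMP4 and control for none. Chrnd ran GREM1, control, BMP4, and Chrne ran control, GREM1, BMP4.

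The embryonic and adult forms of the receptor differ in the gamma and epsilon subunits, so the change of Chrng was set against that of Chrne within each array. Levels of different probe sets are not comparable, and only the difference between groups was used. Chrne was low, at 4.50 to 5.19, and lay below the array median (5.00 to 5.12) on every array but control replicate 1. The measure therefore carries mostly the change of Chrng, which alone was 0.67 with GREM1 against control, where Chrne was -0.13. It is not a measured switch between the 2 forms. With GREM1 the log2 value of Chrng minus Chrne lay between 6.48 and 6.74, against 5.32 to 6.25 in controls, without overlap. The difference of 0.80 had an exact two-sided permutation p = 0.1, which is the smallest that 3 arrays against 3 allow. It was 0.54 without control replicate 1, the array with high Chrne. With BMP4 the values lay between 6.07 and 6.19, inside the control range of 5.32 to 6.25. That difference was 0.26 (exact two-sided permutation p = 0.5), and it was -0.0027 without control replicate 1.

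Other genes of the synapse were described from 7 lists of 76 genes, of which 71 were on the array and 61 were tested. With GREM1 against control 2 rose and 1 fell, where 4.28% of all genes tested were called, and with the replicate block 14 rose and 3 fell, where 11.6% were. With BMP4 against control limma called 0 of the 61, where 0.117% of all genes tested were called, and 4 had an unadjusted p below 0.05, 2 of them above the controls and 2 below, where 8.02% of all genes did. Against BMP4, 5 were higher and 2 lower with GREM1, where 6.45% of all genes were called.

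Of 9 tested genes of the synaptic basal lamina and esterase anchoring, 1 rose with GREM1, where 2.07% of all genes tested rose. The list median was 0.31. With the replicate block 4 rose (Colq, Lama5, Hspg2 and Nid2), where 5.58% of all genes did. The gene that rose in both fits was Colq, the collagen-like tail that anchors acetylcholinesterase in the synaptic cleft, at 0.62 ± 0.12 (limma adjusted p = 0.0258). Without control replicate 1, control replicate 3 or any one GREM1 array it did not pass (highest limma adjusted p = 0.0929). Colq was also higher with GREM1 than with BMP4, by 0.76 ± 0.12 (limma adjusted p = 0.00634). The laminin alpha 5 gene Lama5 was higher with GREM1 than with BMP4 by 0.70 ± 0.10 (limma adjusted p = 0.00405). Against control it was 0.31 ± 0.10 with GREM1 and -0.39 ± 0.10 with BMP4 (limma adjusted p = 0.127 and 0.367).

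Of 8 tested genes of the dystrophin-related scaffold, which links synaptic membrane to the cytoskeleton, 1 rose and 1 fell with GREM1. Of all genes tested 4.28% were called in that comparison. Dag1, which encodes dystroglycan, rose by 1.33 ± 0.12 (limma adjusted p = 9.24e-04). Sntb2, a syntrophin, fell by 0.61 (limma adjusted p = 0.0171), a call lost without control replicate 1, control replicate 3 or GREM1 replicate 1. Utrn, which encodes the synaptic dystrophin homologue utrophin, was 0.40 ± 0.10 (limma adjusted p = 0.0586, or 0.0265 with the replicate block). Relative to BMP4, Dag1 (1.26 ± 0.12) and Utrn (0.42 ± 0.10) were higher with GREM1 and Sntb2 (-0.48 ± 0.11) was lower (limma adjusted p = 3.9e-04, 0.0393 and 0.0291). The Utrn and Sntb2 calls were each lost without any one BMP4 or GREM1 array.

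Of 17 tested agrin, LRP4 and MuSK signalling partners 0 passed in limma with GREM1 against control, where an unadjusted p under 0.05 was reached by 5 above and 1 below the controls, against 20.0% of all genes tested, and the list median was 0.13. With the replicate block 3 rose and 1 fell, where 11.6% of all genes were called. The kinase gene Fyn, Apc and the MuSK-binding ubiquitin ligase gene Pdzrn3 rose by 0.51, 0.31 and 0.39 (limma adjusted p = 0.0475, 0.0275 and 0.0324 with the block), and Dok1 fell by 0.36 (0.0324). Agrn, which encodes agrin, was -0.17 ± 0.12, and -0.24 to -0.056 when 1 array was left out. The adaptor gene Dok1, a relative of Dok7, was lower with GREM1 than with BMP4, at -0.35 ± 0.089 (limma adjusted p = 0.0489), and the call was lost on leaving out any one array other than control replicate 1.

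Of 7 tested neuregulin receptor and Ets factor genes 0 passed in limma with GREM1 against control, where an unadjusted p under 0.05 was reached by 2 above and 1 below the controls, against 20.0% of all genes tested, and the list median was -0.076. The neuregulin receptor genes Erbb3 and Erbb2 were 1.18 ± 0.41 and 0.68 ± 0.25 (limma adjusted p = 0.146 and 0.162, or 0.00406 and 0.00132 with the replicate block). Erbb3 was 0.72 without control replicate 3. The Ets factors Etv5 and Gabpa, which can bind the N-box, were -0.31 ± 0.13 and -0.076 ± 0.086, and when 1 array was left out they ranged from -0.43 to -0.18 and from -0.12 to -0.030.

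Of 11 tested regulators of subunit transcription 0 passed in limma with GREM1 against control, where an unadjusted p under 0.05 was reached by 4 above and 2 below the controls, against 20.0% of all genes tested, and the list median was 0.21. With the replicate block 1 rose, Myog, and 1 fell, Myf5, where 11.6% of all genes tested were called. Myog, the gene of myogenin, was 0.90 ± 0.27 (limma adjusted p = 0.0947, or 0.0167 with the replicate block). Myod1 was 0.27 ± 0.17 (0.10 to 0.41 when 1 array was left out), and the deacetylases Hdac9 and Hdac4, which link nerve activity to subunit transcription, were 0.55 ± 0.20 and 0.0038 ± 0.071. Dach2, a repressor of Myog in innervated muscle, did not pass the filter. The E protein Tcf12, a partner of myogenic factors at E-boxes, was higher with GREM1 than with BMP4 by 0.39 ± 0.092 (limma adjusted p = 0.0364), a call lost without control replicate 2, any one GREM1 array, BMP4 replicate 1 or BMP4 replicate 2. Of 11 neuronal receptor subunit genes 6 were tested and 0 passed in limma with GREM1 against control, with 1 below the controls at an unadjusted p under 0.05, against 20.0% of all genes tested, and 0 passed with the replicate block. The median of the 3 tested postsynaptic channel genes was 0.58 in the same comparison, with 0 past the test in limma and 1 higher at an unadjusted p under 0.05, against 20.0% of all genes tested. With the replicate block 2 of the 3 rose, where 5.58% of all genes did. They were the potassium channel gene Kcnn3 (0.72, limma adjusted p = 0.00211 with the block and 0.484 without) and the calcium channel gene Cacna1s (0.58, limma adjusted p = 0.0301 with the block and 0.474 without). The genes named only for a call with the block were chosen after their values were seen.

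**Figure D4:**
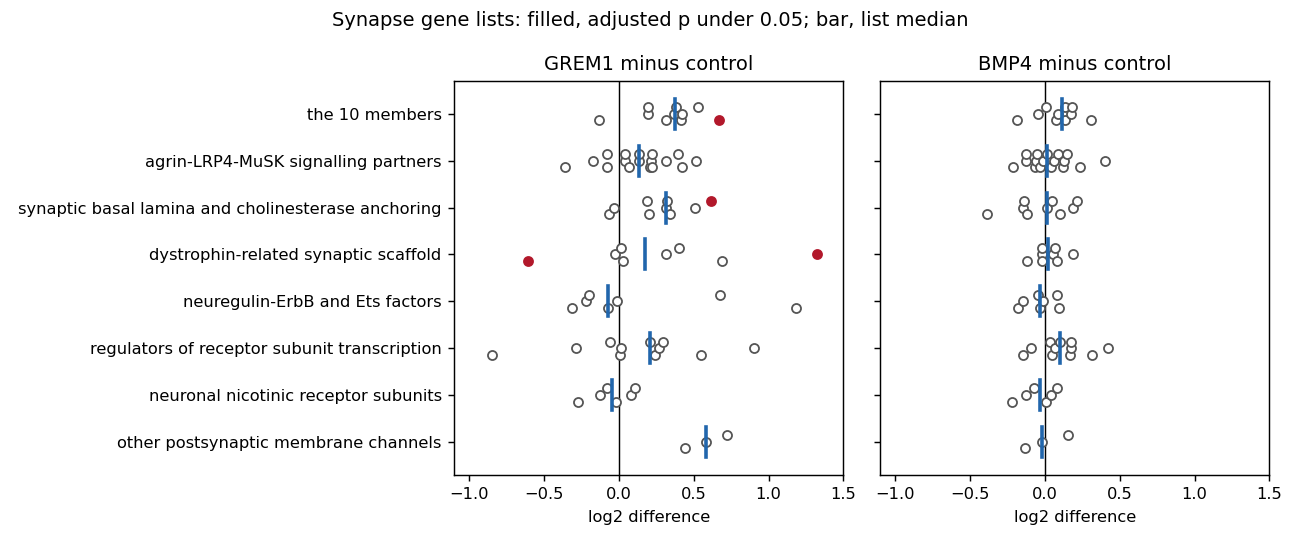
Log2 differences of the 10 synapse genes (top row) and of the tested genes of 7 further lists for GREM1 minus control (left) and BMP4 minus control (right). Filled points passed at an adjusted p under 0.05 and bars mark list medians, which lie between -0.076 and 0.58 with GREM1.

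The profile of Chrng over the 9 arrays was compared with that of every tested gene, each centred on its own mean, by the root mean square difference. The most alike outside the 10 genes were Shisa2 (0.068), the membrane-tubule gene Bin1 (0.083), the acyltransferase gene Agpat3 (0.086), Rapgefl1 (0.088) and Spty2d1 (0.088). The median over all tested genes was 0.35. Of the other synapse genes Chrnd was nearest at 0.13, placed 45 among the tested genes, followed by Rapsn (0.19), Chrnb1 (0.19) and Lrp4 (0.19). Chrne, at 0.41, was farther from Chrng than the median gene. These are descriptions over 9 arrays that fall into 3 groups.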

How the data were processed

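The deposited values are log2 expression, which the authors obtained by RMA with Affymetrix Expression Console, as the submitters' processing notes list. The chip definition or genome build is not given in the sources used here. Of 24973 probe sets 24015 had 1 gene symbol in the platform annotation and 0 had several, while 958 had none and were left out. RefSeq gene IDs were found for 23922 of the symbols. The 10 members had 1 probe set each, and for 4 other genes with several the one with the highest mean was kept, which gave 24011 genes. Testing was limited to the 17142 genes with 3 or more arrays over the 30th percentile of that array's named probe sets.

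Groups were compared with limma 3.58.1 in R 4.3.3 (lmFit and eBayes) on all 9 arrays, with two-sided tests adjusted by Benjamini-Hochberg separately in the 3 comparisons. Of the synapse lists, all genes past the threshold (at most 4 a list) and 12 fixed genes were named. For the profile of Chrng the 5 nearest genes were taken, predicted genes and clones left out. The members and lists were chosen with earlier results of these data known. The fit was tested on simulated data.

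Replicate numbers come from the labels, which do not say what they share. After group means were removed, arrays of the same number correlated at 0.12 to 0.58 between treated and control groups. Each such pair was above 0.1, so the numbers were taken as pairs there and blocked values are given. Arrays of different numbers and groups correlated at -0.47 to 0.23. Control replicate 1 with GREM1 replicate 2 (0.16) lay above control replicate 2 with GREM1 replicate 2 (0.12). Number 2 was thus not paired more closely than some unmatched arrays. Between GREM1 and BMP4 arrays 1 of the 3 pairs lay below 0.1 (0.088). Alternatives were the replicate block, fitting just the 2 groups at hand, an intensity trend, array weights, a further quantile normalization, median-centred arrays, dropping the filter or setting it at the 50th percentile, averaging probe sets, and leaving out each array.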

Additional observations from a re-analysis of the deposited data

How the results depend on the processing

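The differences of Chrng and Chrnd between GREM1 and control kept their direction under all 18 settings tried. Many of these cannot change the difference of such a gene and so do not test its direction. They are the replicate block, fitting just the groups compared, the intensity trend, the filter settings, averaging probe sets and leaving out a BMP4 array. The count of 1 synapse gene past the test with GREM1 against control was 6 with the replicate block, 2 with an intensity trend, array weights, arrays centred on their medians or the stricter filter, and 0 to 2 when 1 array was left out. The 3 other synapse genes were 17 with the block, 5 with array weights, centring or the stricter filter, and 1 to 5 when 1 array was left out. Calls over all 17142 genes tested moved as well, being 734 as reported and 1985 with the block. They were 739 with the trend, 1090 with array weights, 659 with centring and 929 of 12332 with the stricter filter. When 1 array was left out they were 245 to 901. Between GREM1 and BMP4 the 2 synapse genes were 1 after quantile normalization once more and 0 to 2 when 1 array was left out. The 7 others were 14 with the block and 3 to 11 when 1 array was left out. Of all genes tested 6.45% were called between GREM1 and BMP4 as reported and 12.8% with the block. The calls over all genes were 1105 as reported, 1133 after the further quantile normalization and 563 to 1159 when 1 array was left out. In that comparison, where the numbers were not taken as pairs, 3 synapse genes passed with the block, Dok7 being the third (limma adjusted p = 0.0451), where 5.84% of all genes tested rose. With BMP4 against control both counts were 0 under all alternatives.

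Values that changed sign were all short of the threshold. With array weights Chrne and Hdac4 with GREM1 against control were 0.012 and -1.1e-05, and Ache between GREM1 and BMP4 was -0.027. After quantile normalization once more Chrng and Dok7 with BMP4 against control were -0.018 and -0.0029. Leaving out 1 array gave -0.24 to 0.059 for Chrne and -0.021 to 0.037 for Hdac4 with GREM1 against control. With BMP4 against control it gave -0.016 to 0.21 for Chrnb1, -0.14 to 0.079 for Chrnd, -0.0018 to 0.16 for Chrng, -0.30 to 8.8e-04 for Chrne, -0.056 to 0.22 for Lrp4 and -0.096 to 0.11 for Dok7. Between GREM1 and BMP4 it gave -0.0041 to 0.045 for Chrna1, -0.0033 to 0.11 for Chrne and -0.066 to 0.16 for Ache. The change of Chrng minus that of Chrne ranged from 0.54 to 1.00 with GREM1 and from -0.0027 to 0.46 with BMP4. The blocked value of these was 0.80 and 0.26, as without the block, since each replicate number holds 1 array of every group. The cause of the changes was not tested. With 3 arrays a group, differences near the typical SE of 0.115 were not detectable. Much larger ones could also miss the threshold, as Chrnd with GREM1 against control did at 0.53 ± 0.13 (limma adjusted p = 0.0510).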

Other observations

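Chrnd and Chrng are neighbours on mouse chromosome 1 in the RefSeq table, with no protein-coding gene listed between them, and they were the 2 synapse genes past the test between GREM1 and BMP4. The genes beside them, chosen after these values were seen, did not pass. On the side of Chrnd the protease genes Prss56 and Ecel1 differed by -0.039 ± 0.085 and 0.11 ± 0.11 (limma adjusted p = 0.868 and 0.651). On the side of Chrng the cap-binding gene Eif4e2 and the calcium-binding gene Efhd1 differed by 0.22 ± 0.091 and 0.44 ± 0.19 (limma adjusted p = 0.218 and 0.230). Both values were above 0, as for Chrng, and a missed threshold does not show that these genes were unchanged. Efhd1 was low, at 3.57 to 4.58 over the arrays.

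Chrne was listed at 4.66 on 1 array of each group, and its 9 values took 7 distinct levels, as did the 9 values of Rapsn. Myf5, a myogenic factor of undifferentiated myoblasts, was -0.85 ± 0.29 with GREM1 against control (limma adjusted p = 0.144). With the replicate block it fell by 0.85 (limma adjusted p = 9.74e-04). Myog was 0.90 ± 0.27 and did not pass without the block (limma adjusted p = 0.0947). The other myoblast markers did not follow Myf5 as a set. Cdh15 rose by 0.91 ± 0.11 (limma adjusted p = 0.00348), while Des, Myod1 and Pax7 were 0.32, 0.27 and -0.20 and did not pass.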
